A study of Mus musculus with 6 samples.

Results

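The Hedgehog pathway genes described here are the 3 ligands, the receptors and the intracellular transducers named Shh, Ihh, Dhh, Ptch1, Hhip, Smo, Sufu, Gli1, Gli2 and Gli3. They were chosen by name, and all 10 were measured among 19296 genes, each by 1 probe set. Affymetrix whole-transcript arrays measured RNA of YFP-positive cells that had been sorted by FACS from E15.5 mouse kidneys, as cells of the ureteric bud, the epithelial tree from which the collecting ducts arise. Of the 6 arrays, 3 held Dicer mutant cells (Dicerc/-; Hoxb7Cre; Rosa26YFP) and 3 held control cells, labelled wild type; both had a mixed strain background. In the mutant, Cre driven by the Hoxb7 transgene removes a conditional Dicer allele in the ureteric bud, and the second allele is already null in every cell of the embryo. The labels do not say whether the sorted control cells carried Hoxb7Cre or Rosa26YFP, so Cre and Dicer genotype cannot be told apart. They call the replicates biological without giving the number of embryos behind an array, so the spread tested is that between these samples only.

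Hedgehog ligands are secreted proteins that bind Ptch1, which otherwise holds the membrane protein Smo inactive. Once freed, Smo acts in the primary cilium, where it stops the cutting of Gli2 and Gli3 into repressors and releases them from Sufu as activators of transcription. Ptch1, Gli1 and Hhip are themselves induced by the pathway and serve as its usual readouts. In the developing mouse kidney, Shh is made by the epithelium of the medullary collecting duct and ureter and acts mostly on the surrounding mesenchyme, and the Gli3 repressor shapes ureteric branching.

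Because Dicer makes miRNAs, 4 miRNAs that have been reported to act on members in other systems are shown for reference. In human medulloblastoma cells, miR-125b, miR-326 and miR-324-5p were reported to repress SMO, and miR-324-5p also GLI1. In zebrafish, miR-214 was reported to repress the sufu transcript. The mouse mature sequences, from RefSeq (GRCm38.p6), are given with the seed, bases 2 to 8, in capitals, and no seed is shared by any pair.
miR-125b-5p: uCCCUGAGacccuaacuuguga
miR-326-3p: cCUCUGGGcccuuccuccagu
miR-324-5p: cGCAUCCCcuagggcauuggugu
miR-214-3p: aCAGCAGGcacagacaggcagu

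Array medians over all probe sets were similar, from 7.47 to 7.51 in mutant and 7.51 to 7.54 in control cells on the log2 scale. Dicer1 was lower on every mutant array, at 9.80, 9.72 and 9.64, against 10.31, 10.38 and 10.25 on the control arrays. Its log2 fold change was -0.59 ± 0.06 (SE; limma, adjusted p = 0.0005). Which Dicer1 probes lie outside the deleted part is not given in the sources used here, so this value does not count the cells that lost the gene. All 16 ureteric bud markers lay above the median of the whole table (7.51), where 39.6% of all genes passed in either direction. Of these markers, 8 were lower in the mutant cells, 1 was higher and 7 did not pass. Their log2 fold changes ran from -0.60 (Wnt11) to 1.42 (Wnt9b, the higher one). Across all genes the median log2 fold change was -0.05 and 25.8% passed an adjusted p of 0.05, with 11.8% higher and 13.9% lower in the mutant cells. The 3 mutant and 3 control values did not overlap for 42.5% of all genes.

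Of the 10 Hedgehog genes, 2 were lower in the mutant cells (Ptch1 and Gli1), 1 was higher (Gli3) and 7 did not pass. This share is near the 25.8% of all genes, so the count by itself is no result about the pathway. Above the median level, 2 of 6 members passed, where 39.6% of all such genes did. At or below it 1 of 4 passed, against 11.9% of all such genes. The 2 groups of arrays did not overlap for 6 of the 10 members, against 42.5% of all genes. These 6 were Ptch1, Gli1, Gli2, Gli3, Ihh and Sufu. The median log2 fold change over the 10 members was -0.11, and none differed by more than 1.28-fold.

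**Figure D1:**
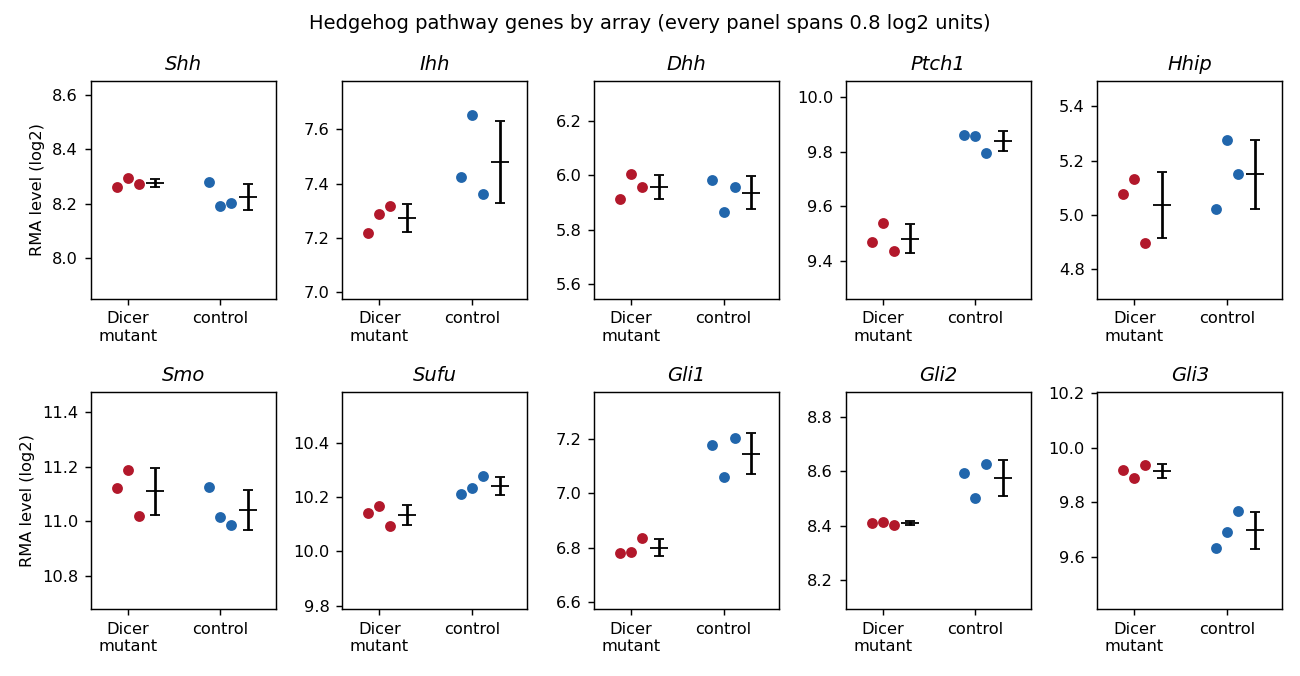
RMA expression level (log2, vertical axis) of each Hedgehog gene on each array, with 3 Dicer mutant arrays in red at left and 3 control arrays in blue at right of each panel. Black bars give the mean and SD of each group, and every panel spans the same range. Ptch1 and Gli1 sit lower and Gli3 higher on all mutant arrays, while Shh, Dhh, Smo and Hhip overlap between groups.

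Shh, the ligand made by the medullary collecting duct and ureter, differed little between the groups. Its levels were 8.26, 8.29 and 8.27 in mutant cells, against 8.28, 8.19 and 8.20 in control cells, on the log2 scale. The mutant arrays were close to each other and lay around the highest control array. The log2 fold change was 0.05, with a 95% interval of -0.07 to 0.18 (limma, adjusted p = 0.518). A change in Shh signal of more than about 1.13-fold in either direction therefore lies outside the interval. Ihh, which in other tissues is best known as the ligand of growing cartilage, had levels of 7.22, 7.29 and 7.32 in mutant cells, against 7.43, 7.65 and 7.36 in control cells. All mutant values were below all control values, but the control arrays were spread and the test did not pass (log2 fold change -0.20, 95% interval -0.40 to -0.01, adjusted p = 0.111). With array weights Ihh passed (adjusted p = 0.0468). Dhh, the ligand of Schwann and Sertoli cells, lay at 5.914, 6.004 and 5.957 in mutant cells, against 5.982, 5.867 and 5.959 in control cells. The Dhh groups overlapped, and its level was well under 7.51, the table's median, on every array (log2 fold change 0.02, 95% interval -0.11 to 0.16).

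Ptch1, the Hedgehog receptor and the gene most often used as a readout of the pathway, had the smallest p of the members. Its levels were 9.47, 9.54 and 9.43 in mutant cells, against 9.86, 9.86 and 9.80 in control cells. The lowest control array lay clear above the highest mutant array. Ptch1 averaged 9.48 ± 0.05 in mutant cells and 9.84 ± 0.04 in control cells (SD, n = 3 each), which puts the mutant cells at 78.0% of the control signal. The log2 fold change was -0.36 ± 0.06 (SE; limma, adjusted p = 0.0027), and the call held in all 14 alternative analyses, with values from -0.39 to -0.33. Hhip, a membrane protein that binds and sequesters the ligands and is also induced by the pathway, was dim. It lay at 5.08, 5.13 and 4.90 in mutant cells, against 5.02, 5.27 and 5.15 in control cells. These Hhip values overlapped and the interval of the log2 fold change, -0.32 to 0.09, includes 0.

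Smo, the transducer that Ptch1 restrains, did not differ detectably. Its levels were 11.12, 11.19 and 11.02 in mutant cells, against 11.12, 11.02 and 10.98 in control cells. The groups overlapped, and the log2 fold change was 0.07 (95% interval -0.09 to 0.22, adjusted p = 0.507). Sufu, the cytoplasmic protein that holds Gli factors back, had levels of 10.14, 10.17 and 10.09 in mutant cells, against 10.21, 10.23 and 10.28 in control cells. The Sufu groups did not overlap, but the difference was small and did not pass (log2 fold change -0.11, 95% interval -0.23 to 0.02, adjusted p = 0.192). Smo, Gli1 and Sufu were named above as miRNA targets in human or zebrafish cells. None of them was called higher in the mutant cells, where 11.8% of all genes were, and Gli1 was called lower. Whether miRNAs act on these transcripts here was not tested. Levels of mature miRNAs were not analysed here.

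Gli1, the transcription factor whose own gene is switched on by Hedgehog signalling and which acts only as an activator, was lower in the mutant cells. Its levels were 6.78, 6.79 and 6.84 in mutant cells, against 7.18, 7.06 and 7.20 in control cells, below the table's median of 7.51 throughout. No mutant array reached the lowest control array. Gli1 averaged 6.80 ± 0.03 in mutant cells and 7.15 ± 0.08 in control cells (SD, n = 3 each), a mutant signal of 78.7% of control. The log2 fold change was -0.35 ± 0.06 (SE; adjusted p = 0.0042), and the call held in all 13 alternatives that kept the gene. The log2 fold changes of Gli1 and Ptch1 were nearly the same. Gli1 is dim, where RMA shrinks differences, so the falls in RNA need not be of like size.

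Gli2, the main activator of the response, had levels of 8.41, 8.42 and 8.40 in mutant cells, against 8.60, 8.50 and 8.63 in control cells. The mutant arrays were almost identical and all lay under the control arrays. The log2 fold change of -0.17 (95% interval -0.30 to -0.04) did not pass over all genes (limma, adjusted p = 0.0656). Gli2 passed after quantile normalization (adjusted p = 0.0392) and when dim genes were left out of the fit and its adjustment (adjusted p = 0.0189).

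Gli3, which in the absence of ligand is cut into the pathway's main repressor, moved the other way. Its levels were 9.92, 9.89 and 9.94 in mutant cells, against 9.63, 9.69 and 9.77 in control cells. All mutant values exceeded the highest control value. Gli3 averaged 9.92 ± 0.03 in mutant cells and 9.70 ± 0.07 in control cells (SD, n = 3 each; 1.16-fold higher, adjusted p = 0.0258). The arrays measure the transcript and do not tell full-length Gli3 protein from its cut repressor form. The Gli3 call was less firm than those of Ptch1 and Gli1. It was lost without Dicer mutant replicate 1, 2 or 3 (adjusted p = 0.0882, 0.0567 and 0.0830) and without control replicate 1 or 2 (adjusted p = 0.0688 and 0.0665), with the log2 fold change between 0.19 and 0.25 over all alternatives.

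**Figure D2:**
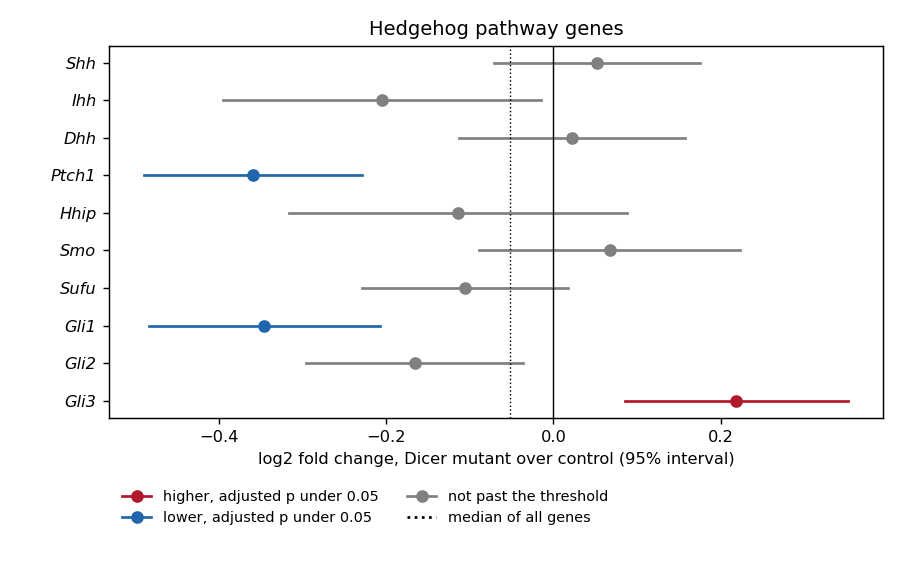
Log2 fold change of each Hedgehog gene, Dicer mutant over control (horizontal axis), with points for the limma estimate and lines for its 95% interval. Blue marks genes that passed as lower, red as higher and grey those not past an adjusted p of 0.05, and the dotted line is the median of all genes, -0.05. The intervals of Ptch1 (-0.49 to -0.23) and Gli1 (-0.48 to -0.21) lie fully below it, and that of Gli3 (0.09 to 0.35) lies above it.

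The RefSeq promoter table (GRCm38.p6) held 8 of the 10 members, among them Ptch1 and Gli3, whose transcripts changed in opposite directions. The 250 bases before each listed start are shown, gene strand, with matches to CCACCC or its reverse complement GGGTGG in capitals. CCACCC is the core of the sequence GACCACCCA that Gli proteins bind, so the longer sequence, searched on both strands too, always contains the shorter one. The Ptch1 window is chr13:63565736-63565985, minus strand, at a start that lies inside the RefSeq gene rather than at its outermost end. The Gli3 window is chr13:15463473-15463722, plus strand.
Ptch1: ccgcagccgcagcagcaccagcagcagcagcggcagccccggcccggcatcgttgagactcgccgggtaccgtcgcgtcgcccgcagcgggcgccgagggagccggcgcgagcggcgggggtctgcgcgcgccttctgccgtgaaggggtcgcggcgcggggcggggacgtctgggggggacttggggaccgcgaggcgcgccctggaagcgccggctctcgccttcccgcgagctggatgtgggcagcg
Gli3: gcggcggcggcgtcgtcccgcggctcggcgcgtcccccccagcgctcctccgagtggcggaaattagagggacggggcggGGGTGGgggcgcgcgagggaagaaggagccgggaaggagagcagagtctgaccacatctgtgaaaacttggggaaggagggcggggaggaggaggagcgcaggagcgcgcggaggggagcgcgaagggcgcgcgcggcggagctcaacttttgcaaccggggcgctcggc

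The full GACCACCCA sequence was in 0 of the 8 member windows and in 0.225% of all 32851 windows. The core was in 6 of the 8 (Ihh, Dhh, Smo, Hhip, Gli2 and Gli3) and in 28.1% of all windows. The Gli3 match lies inside a run of G bases, 170 bases before the start. No match in the Ptch1 window says only that these letters are not in these 250 bases.

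The genes whose levels followed Ptch1 most closely across the 6 arrays were Gnptg, Ivd and Slc25a10 (Pearson r = 0.999, 0.999 and 0.998). Gnptg is a subunit of the enzyme that tags lysosomal hydrolases with mannose phosphate. Ivd is a mitochondrial enzyme of leucine breakdown, and Slc25a10 is the mitochondrial dicarboxylate carrier. The log2 fold changes of Gnptg, Ivd and Slc25a10 were -0.36, -0.33 and -0.63. With 6 arrays in 2 groups, such values mostly restate the difference between the groups.

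Among 68 measured genes that act in the pathway around these members or are known to respond to it, 12 were higher in the mutant cells, 7 were lower and 49 did not pass. The 19 called genes are 27.9% of the list, near the 25.8% of all genes, and the median log2 fold change was 0.00. A further 7 genes of the list were not analysed here. Without Dicer mutant replicate 1 or 3, the lower genes numbered 3 and 2, while the higher genes numbered 10 and 12. Over all genes, the lower calls went from 2690 to 1764 and 1909 in these fits. The higher calls over all genes went from 2285 to 1696 and 1794.

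Of 9 genes for ligand release and for glypicans, proteoglycans that bind Hedgehog at the cell surface, 2 were higher and 7 did not pass. The 2 are 22.2% of the list, against 25.8% of all genes. Gpc5, a glypican that strengthens Hedgehog binding to its receptor in human tumour cells, had levels of 7.40, 7.30 and 7.32 in mutant cells, against 6.57, 6.62 and 6.43 in control cells. The groups lay far apart, and Gpc5 rose 1.74-fold (log2 fold change 0.80 ± 0.07, SE; limma, adjusted p = 0.0002). Scube3, a secreted protein that helps free the lipid-bearing ligand from the cell, rose 1.23-fold (10.23 ± 0.03 in mutant cells and 9.94 ± 0.07 in control cells, SD, n = 3 each; adjusted p = 0.0074). Disp1, the transporter that exports the ligand, and Hhat, the enzyme that adds its palmitate, (log2 fold changes 0.15 and -0.07) were not called.

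Of 3 measured co-receptors, Boc was lower, Lrp2 was higher and Gas1 did not pass. All 3 lay above the median level, where 39.6% of all genes passed. Boc, a surface protein that presents the ligand to Ptch1, had levels of 7.63, 7.80 and 7.57 in mutant cells, against 8.32, 8.15 and 8.28 in control cells. Every mutant array was below every control array, and Boc was 1.49-fold lower (log2 fold change -0.58 ± 0.08, SE; limma, adjusted p = 0.0013). Lrp2, the large endocytic receptor megalin, which binds Shh in the mouse forebrain, had levels of 8.71, 8.81 and 8.79 in mutant cells, against 7.85, 7.82 and 7.49 in control cells. The control arrays differed among themselves, but all lay well under the mutant arrays, and Lrp2 rose 2.07-fold (adjusted p = 0.0003). Lrp2 is also a proximal tubule marker. Of the other 5 markers of that cell type, 2 were lower in the mutant cells and 3 did not pass. The lower ones were Slc34a1 and Hnf4a (log2 fold changes -0.69 and -0.31). These 5 markers lay at or below the median level, where 11.9% of all genes passed. Slc34a1 was not called without Dicer mutant replicate 1 or 2 or control replicate 2 (adjusted p = 0.0552, 0.0655 and 0.0621). Hnf4a was not called without Dicer mutant replicate 1, 2 or 3 or control replicate 1 or 2 (adjusted p = 0.0854 to 0.139). Gas1, a membrane-anchored co-receptor, had a log2 fold change of -0.14 (95% interval in the same fit -0.31 to 0.03).

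Of 13 genes that carry the signal through the cilium, 3 were higher, 2 were lower and 8 did not pass. The called genes are 38.5% of the list, and 12 of the 13 lay above the median level, where 39.6% of all genes passed. Kif3a, the motor that builds the cilium, and Dync2h1, the motor that returns cargo from its tip, rose by 0.49 and 0.44 on the log2 scale (limma, adjusted p = 0.0025 and 0.0013). Efcab7, which anchors the Evc and Evc2 proteins that Smo contacts, rose by 0.41 (adjusted p = 0.0265). Mks1, a protein of the ciliary gate, fell by 0.28 (adjusted p = 0.0154). Tulp3, which brings the inhibitory receptor Gpr161 into the cilium, fell by 0.18 (adjusted p = 0.0325). The last 3 calls were lost in some or all of the fits with 1 array left out. Efcab7 was not called without Dicer mutant replicate 1 or 3 or control replicate 1 or 2 (adjusted p = 0.0724, 0.0763, 0.0660 and 0.0891). Mks1 was not called without Dicer mutant replicate 1 or 3 (adjusted p = 0.0542 and 0.0531). Tulp3 was not called whichever of the 6 arrays was left out (adjusted p = 0.0577 to 0.117). Its log2 fold change stayed between -0.19 and -0.17 in those fits. Kif7, the ciliary kinesin that organises Gli factors at the tip, was not called (log2 fold change -0.06).

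Kinases and ubiquitin ligases that act on Smo or the Gli proteins differed little. Of 19 measured, 2 were higher, 0 were lower and 17 did not pass, and all 17 had log2 fold changes between -0.11 and 0.16. All but 1 of the 19 lay above the median level, where 39.6% of all genes passed. Smurf2, a ubiquitin ligase that removes Ptch1 from the cilium in mouse cells, rose 1.35-fold, with 10.71 ± 0.05 in mutant cells and 10.28 ± 0.08 in control cells (SD, n = 3 each; limma, adjusted p = 0.0019). Dyrk2, a kinase that marks Gli2 for degradation, rose 1.31-fold (adjusted p = 0.0075). Gsk3b, Csnk1a1 and Btrc, which prepare Gli3 for cutting, (log2 fold changes 0.12, 0.11 and 0.15) were not called.

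Genes reported to respond to Hedgehog in one tissue or another showed no common direction among those that passed. Of 24 measured, 4 were higher, 4 were lower and 16 did not pass, and their median was -0.10 on the log2 fold change scale. The called genes are 33.3% of the list, against 25.8% of all genes. Of the 8 above the median level 5 were called, where 39.6% of all genes passed. Of the 16 at or below it 3 were called, where 11.9% of all genes passed. The log2 fold change was negative for 18 of the 24, and for 11912 of all 19296 genes. Mycn, a growth regulator induced by Shh in the mouse cerebellum, rose 1.37-fold, and the secreted Wnt antagonist Sfrp1 rose 1.39-fold (limma, adjusted p = 0.0043 and 0.0082). The cyclin genes parted, with Ccnd1 at a log2 fold change of 0.28 and Ccnd2 at -0.27 (adjusted p = 0.0093 and 0.0168). Bcl2, a survival gene, and Bmp4, a signal that Shh induces in ureteric mesenchyme, were lower (log2 fold changes -0.34 and -0.25, adjusted p = 0.0053 and 0.0176). Without Dicer mutant replicate 1 or 3, Ccnd2 (adjusted p = 0.0670 and 0.0633) and Bmp4 (0.0710 and 0.0625) were not called. Of the other 2 called genes, named after their values were seen, Prdm1 had a log2 fold change of 0.24 and Myocd, the smooth muscle regulator, one of -0.26 (adjusted p = 0.0191 and 0.0476). Prdm1 was not called without Dicer mutant replicate 1 (adjusted p = 0.0840). Myocd was not called without Dicer mutant replicate 1, 2 or 3 (adjusted p = 0.157, 0.0599 and 0.0807) or without control replicate 1 or 2 (0.121 and 0.135). Foxf1, Foxf2 and Foxl1, forkhead genes that respond in gut mesenchyme, (log2 fold changes -0.13, -0.08 and -0.26) were not called.

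**Figure D3:**
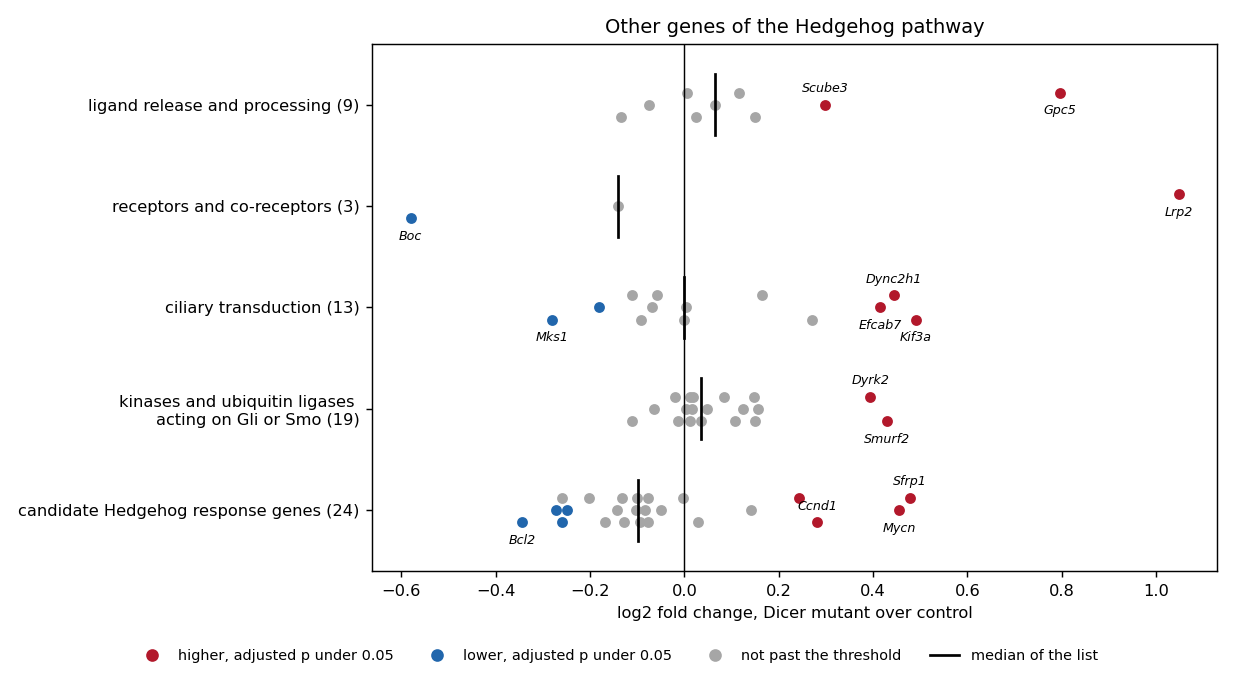
Log2 fold change, Dicer mutant over control (horizontal axis), of 68 further genes by role, with 1 point a gene and the number measured in brackets. Red points passed as higher and blue as lower at an adjusted p of 0.05, grey points did not pass, and black bars are list medians. Lrp2 (1.05), Gpc5 (0.80) and Boc (-0.58) lie farthest from 0, and most kinases and ubiquitin ligases lie near it.

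Markers of neighbouring cell types were read beside these values, since in the embryonic kidney Gli1 and Ptch1 are strong in mesenchyme and Shh in medullary and ureteral epithelium. In RNA of sorted pools, fewer cells of a type and less RNA per cell cannot be told apart. Of 15 markers of stroma and ureteric mesenchyme, 2 were lower and 13 did not pass, and the list's median was -0.05 on the log2 fold change scale. These were the smooth muscle genes Acta2 (7.46 ± 0.17 in mutant cells and 8.18 ± 0.36 in control cells, SD, n = 3 each; limma, adjusted p = 0.0168) and Myh11 (log2 fold change -0.33, adjusted p = 0.0283). Acta2 was not called without Dicer mutant replicate 2 (adjusted p = 0.0665). Myh11 was not called without Dicer mutant replicate 2 or 3 (adjusted p = 0.0887 and 0.0616) or control replicate 1 or 3 (0.0806 and 0.0549). The signal summed over the 15 genes, on the linear scale, was 1617 to 1705 on the mutant arrays and 1702 to 1980 on the control arrays. RMA lists no gene at 0. Of the 15 genes, 12 lay at or below the median level, where 11.9% of all genes passed. Foxd1, Pdgfra, Pdgfrb and Tbx18, which define stroma or ureteric mesenchyme, (log2 fold changes 0.17, -0.20, 0.16 and -0.05) were not called. The part of these cells in the values of Ptch1, Gli1 and Boc was not tested.

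Of 13 markers of medullary duct and ureter epithelium, where Shh is normally made, 11 were lower in the mutant cells and 2 did not pass. Over all genes 13.9% were lower. Of the 13 markers, 11 lay above the median level, where 39.6% of all genes passed in either direction. The signal summed over these 13 markers was 3082 to 4014 on the mutant arrays and 5212 to 6616 on the control arrays. Upk1b, a uroplakin of the urothelium, fell by 1.67 on the log2 scale, and Foxa1, a forkhead factor of this epithelium, fell by 0.70 (limma, adjusted p = 0.0007 and 0.0122). The list also holds the uroplakins Upk1a, Upk2, Upk3a and Upk3b, so it leans to urothelium. Wnt7b, which is in the ureteric bud list too, had a log2 fold change of -0.22. Krt5 and Elf3 (-0.14 and 0.05) were the 2 that did not pass. In the same cells the log2 fold change of Shh was 0.05. Of 44 markers of stroma, nephron progenitor, endothelium, blood, proximal tubule, podocyte and nerve together, 3 were higher, 7 were lower and 34 did not pass. The called genes are 22.7% of these markers, and 37 of the 44 lay at or below the median level, where 11.9% of all genes passed. In the nephron progenitor list Six2 was 9.78-fold higher and Osr1 was lower (log2 fold change -0.67; adjusted p = 0.0695 without Dicer mutant replicate 2 and 0.0630 without control replicate 1), while Eya1, Gdnf, Meox1 and Cited1 of the same list did not pass.

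**Figure D4:**
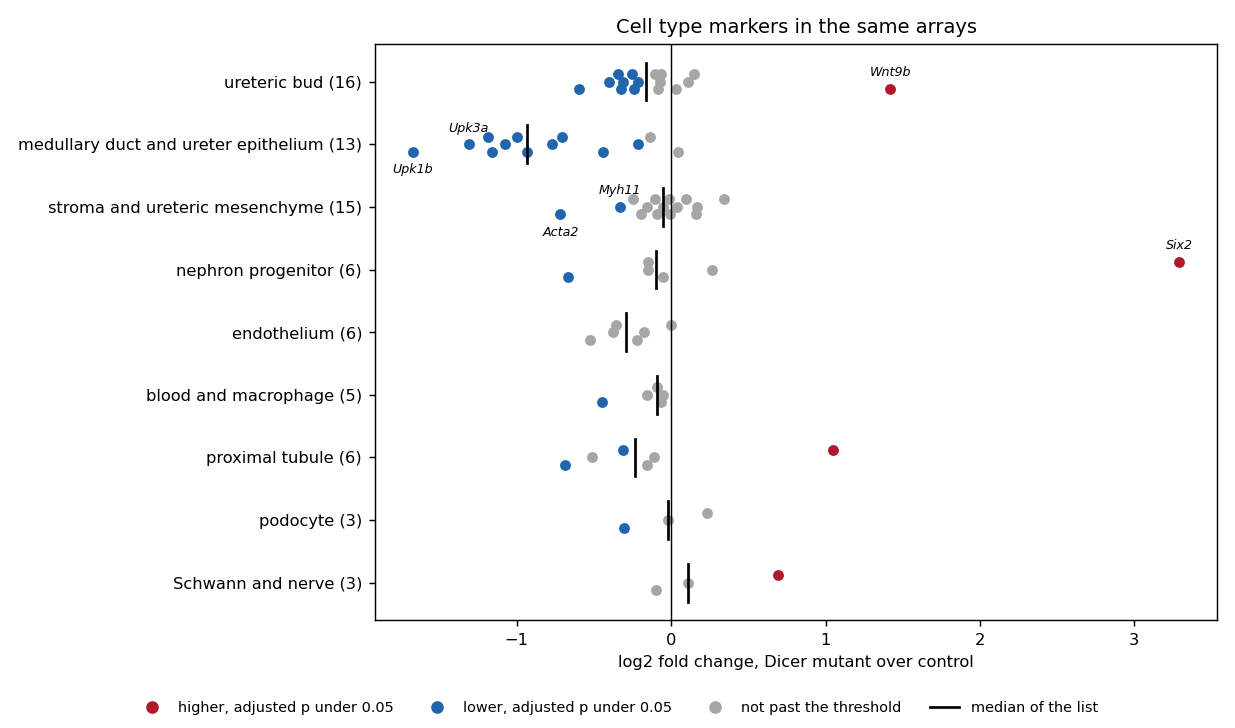
Log2 fold change, Dicer mutant over control (horizontal axis), of cell type markers by list, with 1 point a gene and the number measured in brackets. Red points passed as higher and blue as lower at an adjusted p of 0.05, grey points did not pass, and black bars are list medians. The markers of medullary duct and ureter epithelium have a median of -0.93, and the stroma list has a median of -0.05, with Acta2 and Myh11 lower.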

How the data were processed

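RNA of sorted cells was labelled and hybridised as the labels' protocols describe. The authors deposited RMA levels in log2 units, made with the affy package per the submitters' processing notes, with versions, genome build and filters not given in the sources used here. The RMA method scales arrays to each other before it summarises probes, so a change common to most transcripts can be lost, and differences of dim genes shrink. Values ran from 2.26 to 14.11. No detection call and no batch, slide or date were used.

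Of 23309 probe sets, 20728 carried a single gene symbol in the platform table. Where a gene had several, the one with the highest mean was taken, which left 19296 genes. Symbols of all 10 members matched RefSeq by gene ID. limma 3.58.1 (R 4.3.3; lmFit and eBayes) compared mutant with control cells, with no other term. P-values were two-sided and Benjamini-Hochberg adjusted across the 19296 genes at 0.05, and 95% intervals use limma's moderated SE. On simulated arrays of the same 19296 genes, 64% of 50 genes changed by 0.5 in log2 units were recovered. Of 50 changed by 1, 94% were recovered, and 7 unchanged genes were called. Far fewer genes were changed there than the 25.8% called in the real data, and no change under 0.5 was simulated. The rates therefore do not carry over to the members, whose log2 fold changes reached at most 0.36 in size.

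The members and lists were chosen with earlier results of these data known. All 10 members are named. Of each other pathway list, genes past the threshold are named, up to 6 by smallest p. For the member with the smallest p, the 3 genes with the highest Pearson r were added. Other list genes were named after their values were seen. Alternatives were a replicate block, leaving out single arrays, 2 other scalings (quantile, median), a filter on dim genes, means over probe sets, every probe set on its own, a trended robust prior, weighted arrays, and thresholds of 0.01 and 0.10. Precision is limited by the number of arrays. Figures used matplotlib 3.10.9.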

Additional observations from a re-analysis of the deposited data

How the results depend on the processing

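Ptch1 and Gli1 were called lower in every alternative that kept them, and the count of called members stayed between 2 and 4 of 10. It was 2 at an adjusted p of 0.01 and 4 at 0.10. The count of called genes among the 68 other pathway genes lay between 13 and 22. The arrays carry the same replicate numbers in both groups, but deviations from the group means did not go together by number (r = -0.19, -0.10 and -0.22 over all genes), so the numbers were not taken to pair the samples. With the replicate number as a block, 2 members and 15 other pathway genes were called. Gli3 (adjusted p = 0.0743), Tulp3 (0.111), Bmp4 (0.0599), Prdm1 (0.0556) and Myocd (0.0918) were not. Median centring ended the calls of Tulp3 (adjusted p = 0.0679), Myocd (0.0780) and Hnf4a (0.0718), and quantile normalization those of Myocd (0.0719), Myh11 (0.0640) and Hnf4a (0.0625). Array weights ended those of Myh11 (0.0533) and Osr1 (0.0656), the variance trend those of Prdm1 (0.0564) and Myocd (0.0666), and testing every probe set those of Myocd (0.0569) and Hnf4a (0.0591). The log2 fold change of Dhh lay between -0.012 and 0.045 with 1 array left out, turned to -0.012 without control replicate 2 and to -0.00071 without Dicer mutant replicate 2, and was uncalled throughout. The cause of these changes was not tested. Where an array was left out, the number of samples fell too. Gli1, Ihh, Dhh and Hhip are dim, where RMA compresses differences, so small changes of Hhip and Dhh cannot be told from none.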
